A study of Mus musculus with 2 samples.

Results

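Nnt and 9 other genes that were named with it as mitochondrial antioxidant or adrenal disease genes are described here in mouse adrenal gland. The members are Nnt, Prdx3, Prdx5, Txnrd2, Txn2, Sod2, Gsr, Glrx2, Aaas and Sgpl1, which are 10 of the 55535 annotated genes of the gene table. They were chosen by symbol, read from the transcript names of one deposited quantification and joined by gene ID to the gene and transcript tables of both libraries. Adrenal glands came from 10-day-old B6CASTF1/J females, a cross of the C57BL/6J and CAST/EiJ strains, and their total RNA was sequenced. All samples belong to 1 group with 2 libraries, replicate 1 and replicate 2, each prepared strand-specifically from 300 ng of ribosome-reduced RNA. The labels give no other genotype and no treatment. They name different females for the tissue samples but elsewhere give both libraries 1 donor entry, 1 female and 1 cDNA number, so the SDs below measure the spread between these libraries, which may be technical.

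Cytosolic and mitochondrial peroxide defence both run on NADPH. In mitochondria, Nnt uses the proton gradient to make NADPH from NADH. Thioredoxin reductase Txnrd2 passes these electrons through thioredoxin Txn2 to the peroxiredoxins Prdx3 and Prdx5, and glutathione reductase Gsr passes them to glutathione. Sod2 is the manganese superoxide dismutase of the matrix, which turns superoxide into the hydrogen peroxide that the peroxiredoxins remove. Steroid synthesis in the adrenal cortex draws on the same mitochondrial NADPH through ferredoxin reductase and leaks electrons to oxygen. In humans, loss of NNT or TXNRD2 is a known cause of familial glucocorticoid deficiency, and loss of AAAS or SGPL1 also causes adrenal insufficiency. Aaas encodes the nucleoporin ALADIN and Sgpl1 the lyase of sphingosine 1-phosphate in the endoplasmic reticulum, so these members are adrenal disease genes and not mitochondrial antioxidant enzymes. Gsr, Glrx2 and Prdx5 also give forms that work outside mitochondria.

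The C57BL/6J strain is known for a deletion of several exons inside Nnt. The mm10 assembly comes from that strain, so the Nnt models counted here are those of the C57BL/6J allele, and exons that only the CAST/EiJ allele holds have no model and no value in these files. The files do not tell the alleles apart. The annotation gives the symbol Nnt to 2 gene IDs on chromosome 13, minus strand. ENSMUSG00000025453.18 spans 119335448 to 119408997 with the models Nnt-201 to Nnt-205, and ENSMUSG00000116207.1 spans 119335528 to 119408952 with the model Nnt-206 alone. Nnt-206 is 3339 nt long and lies within the 3464 nt of Nnt-202 without a mismatch. Both have 17 exons and code for 835 residues, and they differ only by 45 bases at the 5′ end and 80 bases at the 3′ end of Nnt-202. Nnt-201 is 3122 nt long and lacks exons 8 and 9 of Nnt-202, which are 146 nt and 196 nt, or 114 codons with no change of frame. The exon junctions that tell these models apart are shown because the Nnt results turn on them, with 30 bases on each side, read from the reference transcripts of the C57BL/6J assembly, and with capitals for the downstream exon.
Nnt-202 exon 7 to exon 8, chr13:119381676-119381705 joined to chr13:119374745-119374774: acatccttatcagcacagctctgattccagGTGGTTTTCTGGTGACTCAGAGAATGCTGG
Nnt-202 exon 9 to exon 10, chr13:119372396-119372425 joined to chr13:119370116-119370145: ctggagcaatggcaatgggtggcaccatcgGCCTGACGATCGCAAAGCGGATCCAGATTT
Nnt-201 exon 7 to the exon numbered 10 in Nnt-202, chr13:119381676-119381705 joined to chr13:119370116-119370145: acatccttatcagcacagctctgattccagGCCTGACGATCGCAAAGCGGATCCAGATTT
The first and second junction sequences each occur in 3 transcripts of the annotation, Nnt-202, Nnt-203 and Nnt-206, and the third occurs in Nnt-201 only.

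Glrx2, the mitochondrial glutaredoxin, is known in mouse to make a mitochondrial form and shorter forms without the import signal. Its coding models start at different codons on chromosome 1, plus strand. Glrx2-205 and Glrx2-210 start in exon 1 and code for 170 and 156 residues. Glrx2-202 and Glrx2-206 start in exon 2, at another site, and code for 123 residues each. The files do not say which model makes which form. The first 60 coding bases of both starts follow, with the start codon in capitals, because most Glrx2 reads were placed on one of them.
Glrx2-205 and Glrx2-210, from position 143739661: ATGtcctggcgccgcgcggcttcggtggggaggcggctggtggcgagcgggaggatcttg
Glrx2-202 and Glrx2-206, from position 143741649: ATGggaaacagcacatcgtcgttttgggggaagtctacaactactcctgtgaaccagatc

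The libraries held 35287805 expected counts on annotated genes in replicate 1 and 33068267 in replicate 2. In replicate 1, 14948 genes reached a TPM of 1 (TPM is the share of transcripts after division by length), and 14684 did so in replicate 2. The adrenal label matched its markers: all 6 steroidogenic genes were detected, with a summed level of 3796 TPM in replicate 1 and 4098 TPM in replicate 2, and all 5 chromaffin genes, with sums of 1032 and 1000.5 TPM. Markers of other tissues were also present. The 6 brown fat genes summed to 3158 TPM in replicate 1 and 3758 TPM in replicate 2, close to the steroidogenic sums, so the levels below are those of the dissected mixture. The 7 liver genes summed to 5552 and 1073 TPM and the 6 skeletal muscle genes to 2961 and 987 TPM in replicates 1 and 2. The 7 kidney genes summed to 0.860 TPM in replicate 1, where Slc22a6 had 0 counts, and to 219 TPM in replicate 2. The part of these tissues in the members' levels was not tested. In bulk tissue, fewer cells of a type and less RNA per cell cannot be told apart.

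All 10 members were detected, that is with 1 TPM or more in each library, and 9 of them reached 10 TPM in both. Their median level stood at 27.8 TPM in replicate 1 and 24.8 TPM in replicate 2, against medians of 10.2 and 9.81 TPM over the 12800 nuclear protein-coding genes detected in both libraries. They are set out here in 4 tiers by level, which are not the groups that the libraries separate. Sod2 stood alone at the top. Prdx5, Prdx3 and Txn2 followed above 100 TPM, then Glrx2, Nnt, Gsr, Sgpl1 and Txnrd2 between 18 and 28 TPM, and Aaas stood lowest. Of the 9 pairs of neighbours in this order, 4 did not overlap between libraries: Sod2 over Prdx5, Prdx3 over Txn2, Txn2 over Glrx2, and Txnrd2 over Aaas. The step between Txn2 and Glrx2 was the widest, at 3.96-fold. The other neighbours overlapped between libraries. Within each library of the gene table, Prdx5 still lay above Prdx3, Glrx2 above Nnt and Gsr above Sgpl1. The order of Nnt and Gsr, and of Sgpl1 and Txnrd2, changed between the libraries. In the other quantification, Prdx3 lay above Prdx5 in replicate 1, and Sgpl1 above Gsr in both libraries. The other quantification separated the same 4 pairs, and there Glrx2 and Nnt, and Sgpl1 and Txnrd2, did not overlap either.

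**Figure D1:**
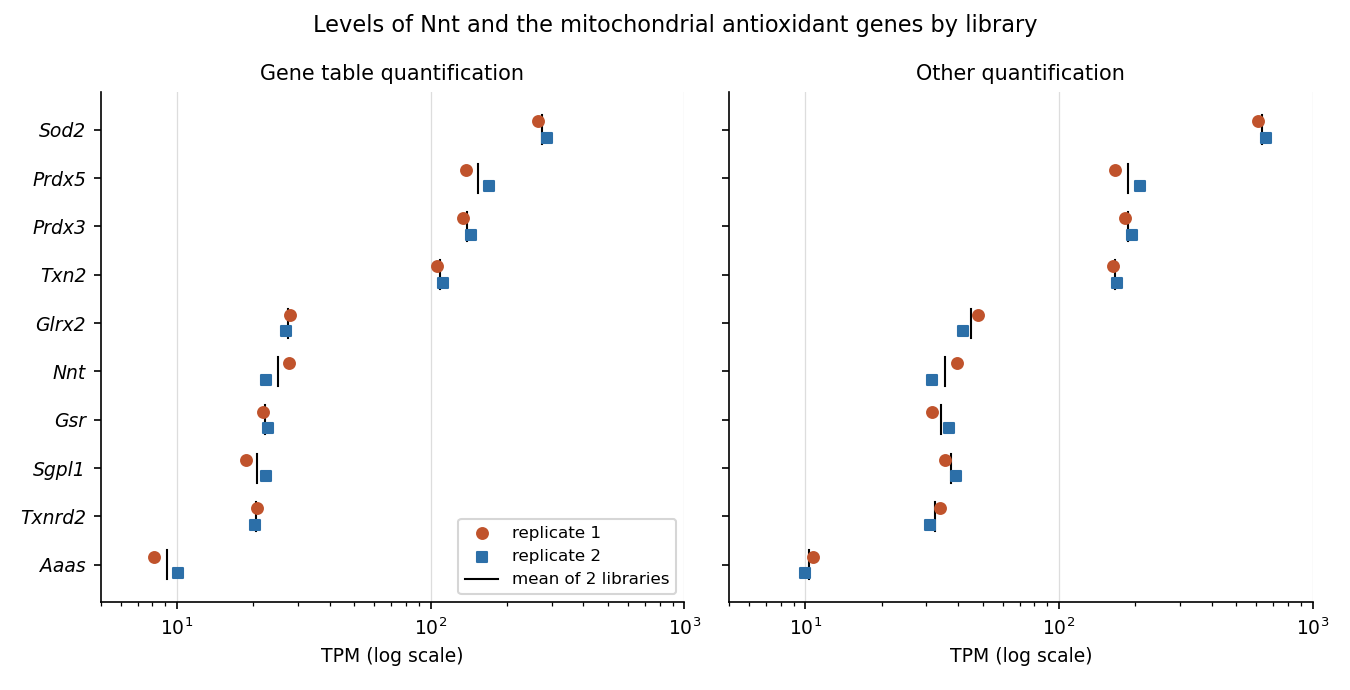
Level of each member in TPM, on a log axis, in replicate 1 (circles) and replicate 2 (squares), with the mean of the 2 libraries as a vertical line, in the gene table (left) and in the other quantification (right). Sod2 is the highest member and Aaas the lowest in both panels, and a gap separates Txn2 at 109 TPM from Glrx2 at 27.5 TPM on the left.

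Nnt, the gene of the mitochondrial transhydrogenase, had 27.6 TPM in replicate 1 and 22.5 TPM in replicate 2, summed over both gene IDs. Its mean was 25.1 ± 3.61 TPM (SD, n = 2), which placed it at rank 2709 of 22014 nuclear protein-coding genes. The expected counts behind it were 2899 in replicate 1 and 2208 in replicate 2. Nnt lay above 78.9% of the nuclear protein-coding genes detected in both libraries.

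The deposited quantifications split Nnt between its models in different ways. In the gene table, the second gene ID held 0.020 TPM in replicate 1 and 0 in replicate 2. In the other quantification the same ID held 15.4 of 39.5 TPM in replicate 1 and 18.8 of 31.6 TPM in replicate 2, which is 39.1% and 59.5% of the gene. The first ID alone therefore read 24.0 TPM in replicate 1 and 12.8 TPM in replicate 2 there, an apparent difference that the sum does not show to that extent. Its log2 ratio of replicate 1 over replicate 2 was 0.83 for the first ID alone, against 0.24 for the sum in the gene table. This fit was added after the data were seen. Since Nnt-206 lies wholly within Nnt-202, reads in its 3339 bases carry no letter that assigns them to either ID.

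The share of Nnt on the exon-skipping model also depended on the quantification. Nnt-201, which joins exon 7 to exon 10, held 13.5 TPM in replicate 1 and 11.1 TPM in replicate 2 in the gene table's quantification, or 48.7% and 49.3% of the gene. In the other quantification it held 3.61 and 2.72 TPM, or 9.14% and 8.61%. The 3 models with exons 8 and 9 together held 46.4% and 47.3% in the gene table's quantification, and 85.0% and 87.3% in the other, in replicates 1 and 2. Each quantification gave nearly the same share in both libraries, and the quantifications differed from each other by far more than the libraries did. The retained-intron models Nnt-204 and Nnt-205 together held 4.85% and 3.42% in the gene table's quantification, and 5.84% and 4.07% in the other.

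**Figure D2:**
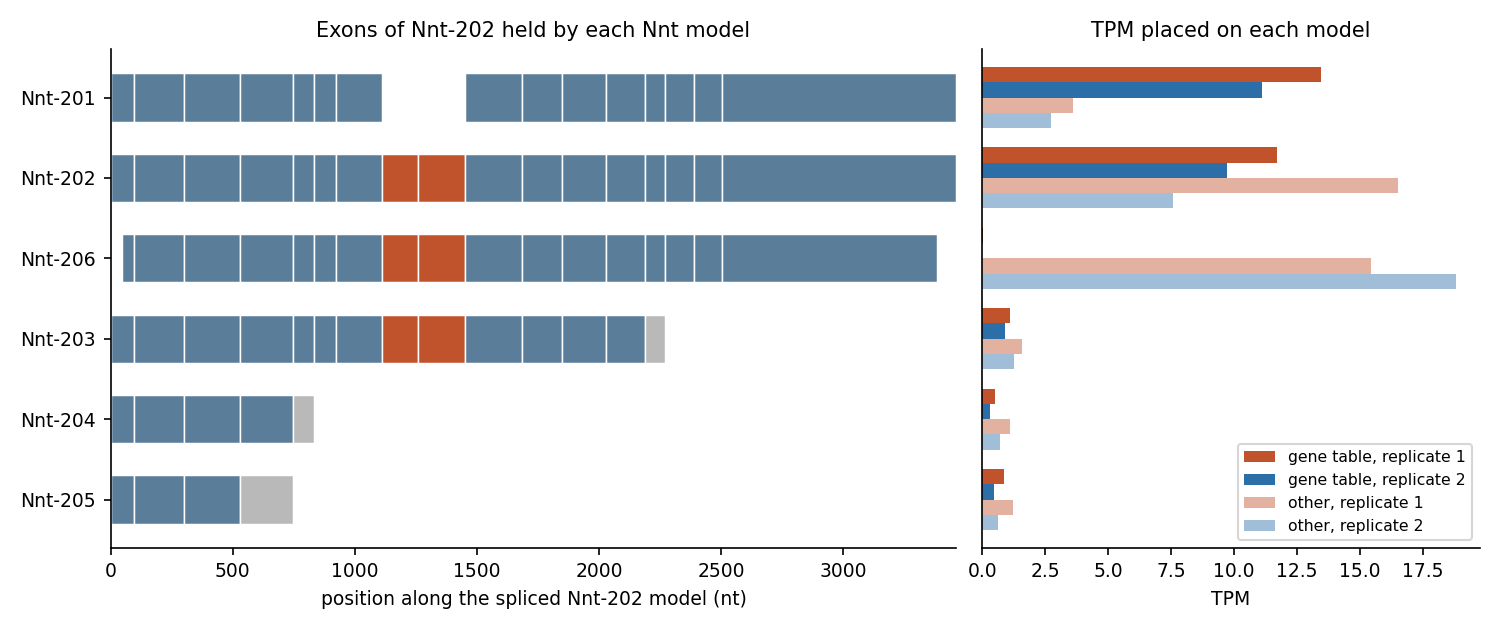
Left, exons of Nnt-202 along its spliced length in nt and whether each Nnt model holds them whole (blue, with exons 8 and 9 in red) or in part (grey); intron sequence kept in Nnt-203, Nnt-204 and Nnt-205 is not drawn. Right, TPM placed on each model in replicate 1 and replicate 2 by the gene table's quantification (full colour) and the other (pale): Nnt-201 reached 13.5 and 11.1 TPM in the gene table's quantification, and Nnt-206 reached 15.4 and 18.8 TPM in the other and at most 0.020 TPM in the gene table's.

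The thioredoxin branch held 3 of the 4 most abundant members. Prdx3, the peroxiredoxin of the mitochondrial matrix (ENSMUSG00000024997.7, chromosome 19, 60864051 to 60874556), had 134 TPM in replicate 1 and 145 TPM in replicate 2, a mean of 140 ± 7.62 TPM (SD, n = 2). It has 1 annotated transcript, of 257 codons, so its level rests on no split between models. Prdx5, an atypical peroxiredoxin of mitochondria, peroxisomes and cytosol (ENSMUSG00000024953.17, chromosome 19, 6906697 to 6910106), had 138 TPM in replicate 1 and 171 TPM in replicate 2, a mean of 154 ± 23.3 TPM. Their ranges over the libraries overlapped.

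The models of Prdx5 were assigned in opposite ways. Prdx5-205 and Prdx5-204, which code for 142 and 166 residues, held 44.1% and 25.1% of the TPM in replicate 1 in the gene table's quantification, and 46.4% and 23.8% in replicate 2. Both were at 0 in the other quantification in both libraries. There Prdx5-201, with 210 residues, held 52.8% in replicate 1 and 45.9% in replicate 2, and Prdx5-203, with 213 residues, held 46.6% and 53.5%. Prdx5 shares 409 exon bases on the opposite strand with Trmt112, a methyltransferase cofactor, which had 17.8 TPM in replicate 1 and 18.0 TPM in replicate 2 in the gene table and 42.4 and 33.3 TPM in the other quantification. The sources used here do not give the use of strand in counting, and reads of this overlap are uncertain for both genes.

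Txn2, the mitochondrial thioredoxin (ENSMUSG00000005354.16, chromosome 15, 77915047 to 77929006), had 106 TPM in replicate 1 and 112 TPM in replicate 2, a mean of 109 ± 4.18 TPM. Txn2-201, of 166 codons, held 93.6% of it on average, and 83.3% in the other quantification. Txnrd2, the selenoprotein reductase that recharges Txn2 (ENSMUSG00000075704.16, chromosome 16, 18426384 to 18479073), had 20.7 TPM in replicate 1 and 20.4 TPM in replicate 2, a mean of 20.6 ± 0.247 TPM. Txnrd2-203, of 527 codons, held 77.3% of it, and 74.4% in the other quantification. By RNA level, Txnrd2 was thus low beside Txn2.

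Sod2 (ENSMUSG00000006818.5, chromosome 17, 13006846 to 13040063) was the most abundant member, with 264 TPM in replicate 1 and 287 TPM in replicate 2, a mean of 275 ± 16.2 TPM (SD, n = 2) and rank 170 among nuclear protein-coding genes. Little of that TPM lay on the model that codes for the whole enzyme. Sod2-201, of 222 codons and 5861 nt, held 20.9 TPM in replicate 1 and 21.7 TPM in replicate 2, or 7.91% and 7.57%. Sod2-207, annotated as a processed transcript without a coding sequence, held 155 and 173 TPM, or 58.7% and 60.4%. Sod2-204, annotated as a retained intron, held 83.7 and 89.6 TPM, or 31.7% and 31.2%.

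TPM divides by length, and these models differ in length. In expected counts, Sod2-201 held 36.3% in replicate 1 and 35.0% in replicate 2, Sod2-207 held 48.6% and 50.3%, and Sod2-204 held 13.8% and 13.6%. Sod2-207 is 1138 nt long, begins at exon 2 of Sod2-201, keeps 47 bases that lie outside the exons of Sod2-201, and ends after the first 591 bases of the 5109-nt last exon. It holds 96.5% of the coding bases of Sod2-201 and lacks the 23 coding bases of exon 1, among them the start codon. All but those 47 bases of Sod2-207 are shared with Sod2-201, so most of its reads carry no letter that assigns them to either model. The other quantification gave the gene 609 TPM in replicate 1 and 654 TPM in replicate 2, on its own TPM scale. Rescaled over nuclear protein-coding genes, it read 1.39 times the gene table for Sod2. It placed 22.5% and 20.7% of the TPM on Sod2-205, a 451-nt model of 50 codons. The gene table's quantification put that model at 0 and 0.150 TPM.

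Gsr, the glutathione reductase (ENSMUSG00000031584.16, chromosome 8, 33652523 to 33698163), had 21.8 TPM in replicate 1 and 22.8 TPM in replicate 2, a mean of 22.3 ± 0.686 TPM. Gsr-201, its only coding model, of 500 codons, held 66.6% and 73.4% of the TPM, and the rest lay on 2 processed transcripts. In expected counts Gsr-201 held 91.2% and 92.0%. The gene also spans Gm24727, a snoRNA gene on the same strand that shares no exon base with it and stood at 76.6 TPM in replicate 1 and 69.0 TPM in replicate 2.

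Glrx2 (ENSMUSG00000018196.18, chromosome 1, 143716338 to 143749676) had 28.0 TPM in replicate 1 and 26.9 TPM in replicate 2, a mean of 27.5 ± 0.778 TPM. The 3 coding models that start in the downstream exon, at the second of the codons shown above, held 90.2% and 93.0% of its TPM in replicates 1 and 2. The 3 models that start at the upstream codon, 1 of them annotated for nonsense-mediated decay, held 5.25% and 3.16%. The order was the same in the other quantification, where the downstream start held 75.4% and 86.1% and the upstream start 11.0% and 10.3%. By counts the gap was narrower, since Glrx2-202 is only 580 nt long: the downstream start held 82.3% and 84.5% of the expected counts and 59.2% and 56.9% of the other quantification's estimated counts, and the upstream start 5.87% and 7.16%, and 25.4% and 32.3%. In both quantifications and both libraries, more reads were thus placed on the models of 123 codons than on those that begin in the upstream exon.

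Sgpl1 (ENSMUSG00000020097.14, chromosome 10, 61098642 to 61147703), which breaks down sphingosine 1-phosphate, had 18.8 TPM in replicate 1 and 22.5 TPM in replicate 2, a mean of 20.6 ± 2.65 TPM. Sgpl1-201 and Sgpl1-202 code for the same 568 residues. Sgpl1-202 held 52.4% in replicate 1 and 30.0% in replicate 2, and Sgpl1-201 held 28.4% and 53.3%, so the leading model differed between the libraries. In the other quantification Sgpl1-202 led in both libraries, with 56.8% and 61.1%. Gm44308, an annotated miRNA gene inside Sgpl1, was at 0 in both libraries.

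Aaas (ENSMUSG00000036678.8, chromosome 15, 102338252 to 102350771) was the lowest member, with 8.15 TPM in replicate 1 and 10.1 TPM in replicate 2, a mean of 9.11 ± 1.35 TPM, from 300 and 290 expected counts. The TPM was higher in replicate 2 by more than the counts were. Aaas-201, of 546 codons, held 3.92 and 3.87 TPM, nearly the same level in both libraries. The difference lay on short models: the 314-nt Aaas-202 held 2.18 and 3.47 TPM and the 440-nt Aaas-206 held 0 and 1.11 TPM, and both were at 0 in the other quantification. There Aaas had 10.8 TPM in replicate 1 and 9.97 TPM in replicate 2, the opposite order.

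Across the members, 82 transcripts are annotated, and the leading transcript was annotated as protein coding for 9 of 10 members in either quantification, Sod2 being the exception. The quantifications named the same leading transcript for 7 of 10 members and differed for Nnt, Prdx5 and Sgpl1. Of the 50 member transcripts that held over 2% of their gene's TPM in either quantification, 1 matched a transcript of another gene over 200 nt or more at 95% identity or more, which was Prdx5-201 against Trmt112 on the opposite strand.

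**Figure D3:**
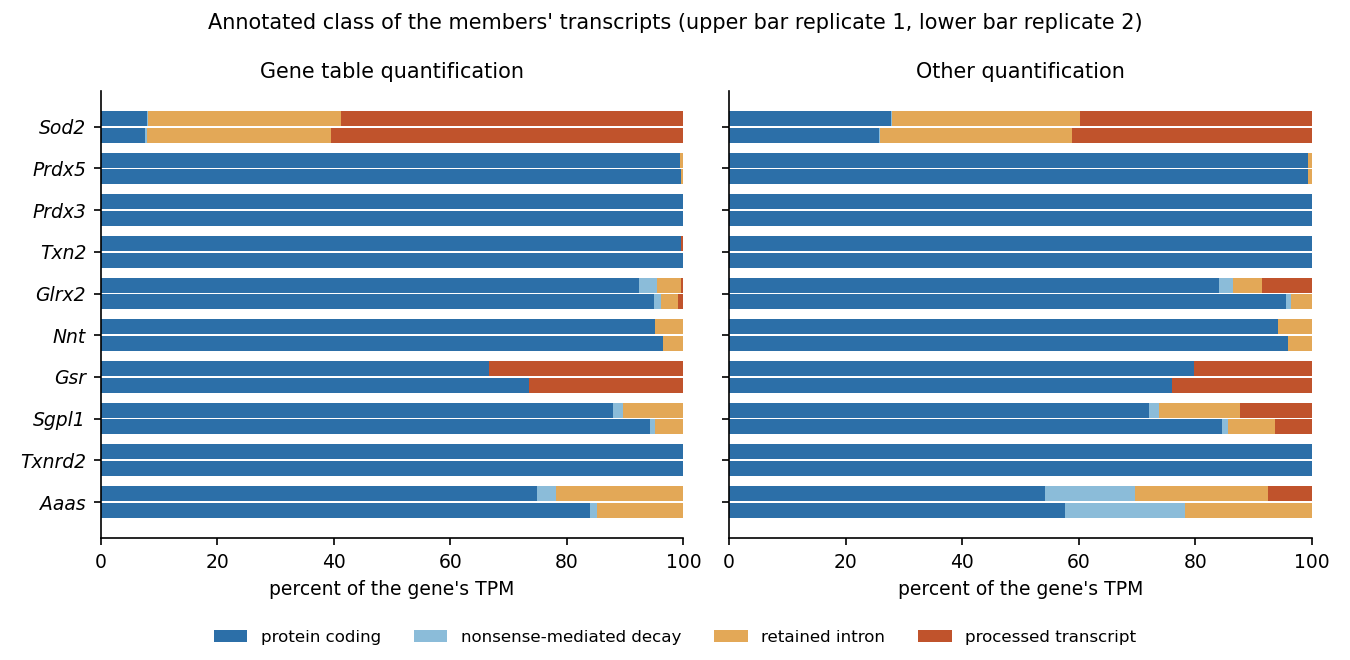
Share of each member's TPM, in percent, by the annotated class of its transcripts, in the gene table's quantification (left) and the other (right), with replicate 1 as the upper and replicate 2 as the lower bar. Sod2 differs from the other members: 7.91% and 7.62% of its TPM lies on protein-coding models on the left, and 27.8% and 25.8% on the right.

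The libraries were set against each other to see how far the members' levels repeat. Of the 10 members, 0 passed an adjusted p under 0.05 together with a 2-fold difference, where 6.85% of the 18883 genes tested did. The test was an exact two-sided binomial test on counts with Benjamini-Hochberg adjustment over all genes tested, so it measures counting error between these libraries and not between animals. Without the fold limit, 1 member was higher in replicate 1, where 12.5% of genes were, and 6 were higher in replicate 2, where 14.0% of genes were. Passing depends on counts as well as on the difference: Txn2, with 4273 and 4169 counts, passed at a log2 ratio of -0.12. The shares cover genes of all depths, so they do not show that the members differ more than other genes of like count. With edgeR's exact test at the common dispersion, 0 members passed an adjusted p under 0.05, where 2.61% of genes did. By unadjusted p under 0.05, 0 members passed it, against 7 in the binomial test. Its dispersion was estimated from the same 2 libraries taken as 1 group, with a biological coefficient of variation of 0.28. The differences under test thus enter the error of the edgeR test, and it cannot show that the members are equal. A test that takes the 2 libraries as its samples was not run, because its exact two-sided p could not be under 0.5.

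Nnt was the member higher in replicate 1, by a log2 ratio of 0.24 (95% counting interval 0.16 to 0.32, adjusted p = 6.78e-08, exact binomial test). Prdx5 and Sgpl1 had the widest differences in the other direction, at -0.33 (interval -0.40 to -0.26) and -0.33 (interval -0.42 to -0.25) for replicate 1 over replicate 2. Gsr stood at -0.24, Prdx3 and Sod2 at -0.16 each and Txn2 at -0.12, all past the adjusted p. Txnrd2 at -0.01, Glrx2 at 0.10 and Aaas at -0.11 did not pass, and their intervals reached from -0.34 to 0.25 in all. The median over the members was -0.14 and the median over all genes tested 0.01. The members that were higher in replicate 2 went the way of the steroidogenic list, with 5 of 6 genes past the adjusted p in replicate 2, and of the brown fat list, also with 5 of 6, and of the kidney list, with 7 of 7. Nnt went the way of the liver list, with 7 of 7 genes past it in replicate 1, the red cell list with 4 of 4, the skeletal muscle list with 5 of 6 and the chromaffin list with 4 of 5. Against that way, 1 skeletal muscle gene and 1 chromaffin gene passed it higher in replicate 2. That chromaffin gene stood at -0.54, a wider difference than those of the other 4. In the macrophage list 1 of 4 genes passed, higher in replicate 1. Over all genes tested, 12.5% passed higher in replicate 1 and 14.0% higher in replicate 2. The lists differed in size of effect. Their median log2 ratios were 2.30 for liver, 1.64 for skeletal muscle, 0.80 for red cells, 0.25 for macrophages and 0.10 for chromaffin genes. They were -8.81 for kidney, -0.26 for brown fat and -0.12 for steroidogenic genes. A ratio in either direction goes with some of these lists. The part of tissue composition in the members' differences was not tested.

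**Figure D4:**
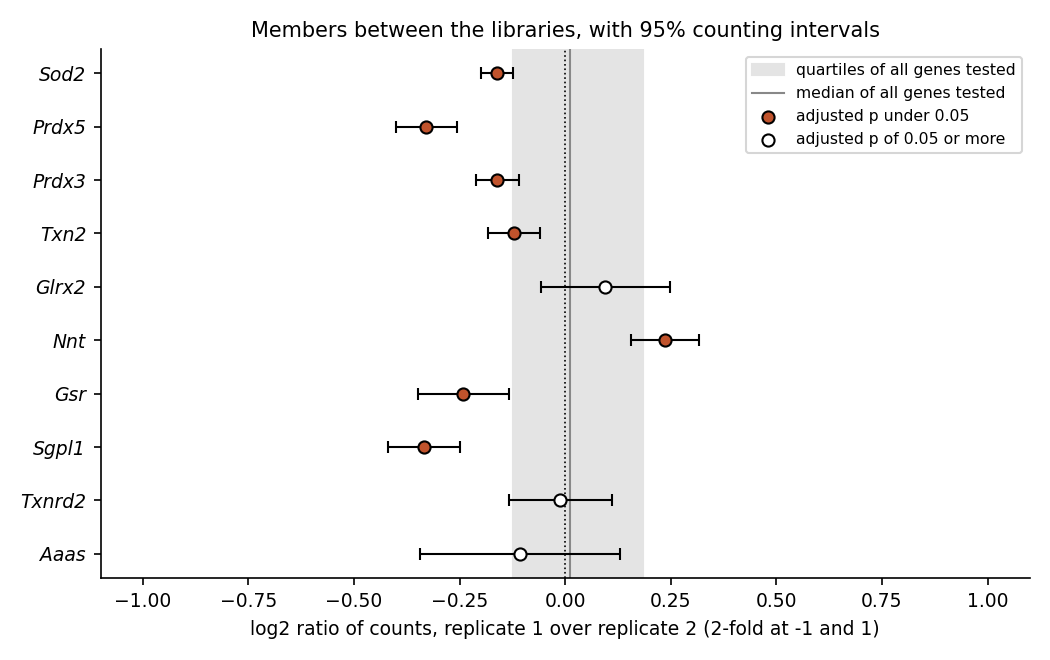
Log2 ratio of counts of each member, replicate 1 over replicate 2, with 95% counting intervals; filled points passed an adjusted p under 0.05, and the grey band runs from the lower to the upper quartile of all genes tested, with their median at 0.01. Nnt at 0.24 and Glrx2 at 0.10 lie right of 0, 7 members with ratios from -0.33 to -0.11 and Txnrd2 at -0.01 lie left of it, and no member reaches 2-fold.

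Other genes of the pathways were read from lists chosen with earlier results of these data known. In none of the 8 lists did a gene pass both the adjusted p and the 2-fold limit between the libraries, where 6.85% of all genes tested did. Without the fold limit, 12.5% of all genes tested passed higher in replicate 1 and 14.0% higher in replicate 2. The counts of list genes past the adjusted p below stand beside these shares, and genes with many counts pass at small differences. Of the other routes to mitochondrial NADPH and glutathione, 10 of 11 genes were detected. Idh2, the NADP-dependent isocitrate dehydrogenase of mitochondria, had 164 TPM in replicate 1 and 149 TPM in replicate 2, and Glud1, glutamate dehydrogenase, had 102 and 93.9 TPM. Slc25a39, a carrier for glutathione import, had 108 and 115 TPM, and Nadk2, the mitochondrial NAD kinase, had 24.4 and 21.8 TPM. Idh2 and Glud1 passed the adjusted p higher in replicate 1, as Nnt did, and Slc25a39 passed it higher in replicate 2. Aldh1l2, a mitochondrial folate enzyme that yields NADPH, was the gene not detected, at 0.510 and 0.870 TPM.

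Other peroxide and thiol enzymes were listed as mitochondrial, though whole-gene levels do not tell where in the cell the protein works. All 6 of these enzymes were detected, and 3 of them passed the adjusted p, all higher in replicate 2. Gpx4, which reduces lipid peroxides, was the highest of them at 374 TPM in replicate 1 and 444 TPM in replicate 2, above every member in the gene table; in the other quantification its mean was 565 TPM and that of Sod2 was 631 TPM. Gpx1, the main glutathione peroxidase, had 140 and 138 TPM, and Glrx5, a glutaredoxin of iron-sulfur cluster assembly, had 52.7 and 54.1 TPM. Srxn1, the sulfiredoxin that restores overoxidized peroxiredoxins, had 16.0 and 22.9 TPM, a log2 ratio of -0.53 that was wider than that of any member in the gene table.

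All 12 genes listed as counterparts outside mitochondria were detected, and 3 passed the adjusted p, all higher in replicate 2. The highest were the cytosolic superoxide dismutase Sod1, with 363 TPM in replicate 1 and 340 TPM in replicate 2, Prdx1 with 189 and 199 TPM, Prdx2 with 166 and 157 TPM, and catalase, Cat, with 123 and 143 TPM. All 5 genes of mitochondrial steroid electron transfer passed the adjusted p, 1 higher in replicate 1 and 4 in replicate 2. Their counts are high, and Fdxr passed at a log2 ratio of only -0.09 with 7075 and 6741 counts. They include the side-chain cleavage enzyme Cyp11a1, with 517 TPM in replicate 1 and 538 TPM in replicate 2, and its electron donors: the ferredoxin Fdx1, with 217 and 311 TPM, and its reductase Fdxr, with 121 and 124 TPM. The 11-beta-hydroxylase Cyp11b1 had 361 and 384 TPM.

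Of the 10 other genes of inherited adrenal insufficiency, all were detected, 2 passed higher in replicate 1 and 5 higher in replicate 2. The 21-hydroxylase Cyp21a1 had 818 and 844 TPM and the cholesterol transport protein Star 572 and 824 TPM in replicates 1 and 2. Cdkn1c, a cell cycle inhibitor, had 150 and 127 TPM. Every one of the 6 nucleoporins listed beside Aaas was detected and 0 passed the adjusted p in the binomial test, with Nup188 at 15.0 and 14.4 TPM the highest and Nup205, Nup155 and Nup93 after it at means of 13.0, 8.14 and 6.80 TPM. Aaas, at a mean of 9.11 TPM, lay within their range. Of 9 sphingolipid genes beside Sgpl1, 8 were detected and 2 passed, both higher in replicate 2. The ceramide synthase Cers2 led them at 45.5 and 46.5 TPM, and the ceramidase Asah1, the phosphatase Sgpp1 and the ceramide synthase Cers5 had means of 16.4, 15.5 and 13.8 TPM. Of the 6 regulators and targets of NRF2, the transcription factor of the antioxidant response, all were detected and 2 passed, both higher in replicate 1. Nfe2l2, which encodes NRF2, had 26.1 and 27.1 TPM, its inhibitor Keap1 15.1 and 14.5 TPM, its partner Mafg 15.4 and 14.0 TPM and its target Hmox1 9.01 and 7.06 TPM.

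Ratios of TPM within a library set members against counterparts free of library scaling. Txn2 exceeded the cytosolic thioredoxin Txn1, which had 77.2 TPM in replicate 1 and 78.4 TPM in replicate 2, by a log2 ratio of 0.46 and 0.51. Glrx2 exceeded the cytosolic glutaredoxin Glrx, at 9.08 TPM in both libraries, by 1.62 and 1.57. Prdx3 lay under Prdx1 by log2 ratios of -0.50 and -0.46, and Txnrd2 under the cytosolic reductase Txnrd1, with 32.0 and 27.1 TPM, by -0.62 and -0.41. Sod2 lay under Sod1 by -0.46 and -0.24. By whole-gene TPM, 2 of these 5 members were above their cytosolic counterpart and 3 below it in both libraries. The Glrx2 models that start in the upstream exon held 1.47 and 0.850 TPM by themselves, under the 9.08 TPM of Glrx.

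Between members, Gsr exceeded Txnrd2 by log2 ratios of 0.07 and 0.16, and Prdx3 lay under Prdx5 by -0.04 and -0.24, differences of the size of the spread between libraries. Nnt was set against 3 genes whose enzymes supply or spend mitochondrial NADPH. Its log2 ratio to Idh2 was -2.57 in replicate 1 and -2.72 in replicate 2, so Idh2 was 6.26-fold higher on average. Fdxr was 4.92-fold higher than Nnt, with log2 ratios of Nnt over Fdxr of -2.14 and -2.46, and Cyp11a1 was 21.1-fold higher, with ratios of -4.23 and -4.58. These ratios are of RNA levels and, for Nnt, of the models of the C57BL/6J allele. In the other quantification the sign held in both libraries for 7 of the 10 pairs. Prdx3 against Prdx5, Gsr against Txnrd2 and Sod2 against Sod1 had opposite signs in its 2 libraries.

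**Figure D5:**
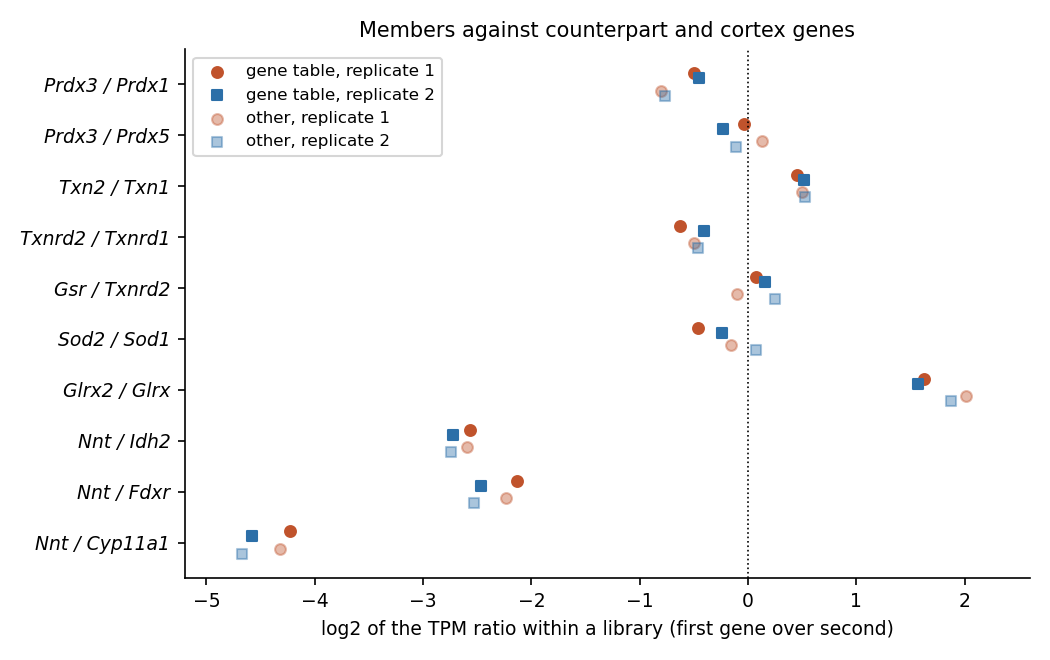
Log2 ratio of TPM within each library, first gene over second, for 10 pairs, in replicate 1 (circles) and replicate 2 (squares), from the gene table (full colour) and the other quantification (pale). Glrx2 over Glrx and Txn2 over Txn1 lie right of 0, and Nnt lies left of 0 against Idh2, Fdxr and Cyp11a1, at -4.58 for the last pair in replicate 2.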

How the data were processed

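Values came from 2 libraries of total RNA. The authors deposited, with RSEM column names, expected counts, TPM, bounds of a credibility interval of TPM (a signal range not used for the text) and each transcript's percent of its gene's TPM. The authors also deposited estimated counts and TPM with kallisto column names. Per the notes deposited with the files, the build is mm10 and the annotation GENCODE M21. The sources used here do not give the aligner, the quantifiers, the use of strand in counting or any use of CAST/EiJ variants. TPM in the deposited gene table covers all features, spike-ins included.

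The symbol was joined by gene ID, and the 2 IDs of Nnt were summed. Members and lists were chosen with earlier results of these data known. The text names the members, the 4 genes of highest TPM in each list, the genes of 10 pairs and genes that overlap a member, of which some are not reported here; Aldh1l2 and Slc22a6 were named after their values were seen. Expected counts were rounded, scaled with TMM (edgeR 4.0.16, R 4.3.3) over annotated genes, and compared by an exact binomial test at summed counts of 20 or more, with a prior count of 0.5 in ratios and Clopper-Pearson intervals. Intervals cover counting error only. With 1 group, the quasi-likelihood test had no contrast. Sequences came from the GENCODE transcripts, and copies were sought with blastn 2.17.0. Python 3.11.15 was used.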

Additional observations from a re-analysis of the deposited data

How the results depend on the processing

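The count of 0 members past the adjusted p and 2-fold was the same with DESeq2 size factors (DESeq2 1.42.0), total counts and ERCC spike-in counts. It was also the same with no filter beyond 1 count and in the other quantification, and it was 7 with no fold limit. In edgeR's exact test it was 0 as well, but that test is no separate check, because its dispersion came from the libraries it compared. All 10 members were detected in both quantifications and in each library. Of the log2 ratios between the libraries, Txnrd2 turned to 0.0506 with total counts and to 0.0302 with the other quantification, and Txn2 lost its adjusted p with total counts; 49 of 52 values kept direction and side. Of the ratios within a library, Prdx3 over Prdx5 turned to 0.00894 in the other quantification, and 35 of 40 kept their value within the spread of the libraries. The settings without replicate 1 or without replicate 2 stay within that spread by construction, for these ratios and for the levels. They are counted among the values that stayed but are no check. Of the levels, 32 of 62 moved by more than that spread. Among them, by construction, are the 10 levels of the gene table rescaled over nuclear protein-coding genes, which held only part of the TPM. Prdx3 then read 419 and Sod2 827 TPM. The 10 levels of the other quantification rescaled in this way are among them too, as they were set against the unscaled gene table. Rescaled over nuclear protein-coding genes, the other quantification read 1.39 times the gene table for Sod2, 0.690 for Aaas and 0.741 for Prdx5. Nnt by its first ID alone had a log2 ratio of 0.83 in the other quantification, against 0.24; this was chosen after the data were seen. No paired analysis was possible because the study holds 1 group. About 300 counts behind Aaas limit its ratio to the interval given.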
